A study of Homo sapiens with 14 samples.

Results

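G-to-A sites are positions where the reference base of the transcript is G and some RNA-seq reads carry A. They were collected from lists of called RNA sites of 293FT cells, an established human line derived from embryonic kidney, by taking every site with reference G and mutated base A and counting each position, strand and change once. This gave 587 distinct sites out of 22358 of all 12 changes (2.63%), and 976 of 46372 calls. The lists came from 14 libraries: 3 of non-transfected cells (NT), 3 of cells given EGFP, 3 of cells given Cas9, 2 of cells given PE3 (replicates 2 and 3) and 3 of cells given hA3A-BE3. PE3 is a prime editor, a Cas9 nickase joined to a reverse transcriptase, given together with a nicking guide for the unedited strand. hA3A-BE3 is a cytosine base editor, a Cas9 nickase that carries human APOBEC3A. All titles name hRNF2, read here as the target, and cells were kept for the brightest 15% by fluorescence 40 h after transfection. The NT, EGFP and Cas9 libraries form the 9 controls. Nothing in the labels says that replicates were separate cultures, and the spread behind each p-value may therefore be technical.

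APOBEC3A removes the amino group of cytosine in single-stranded DNA and in RNA, which is read as a C-to-T change. A G-to-A change on one strand is the same base pair change as C-to-T on the other, so the strand assigned to a site matters for this class. The common RNA edit of human cells, made by ADAR enzymes, is read as A-to-G, and G-to-A changes have been reported for only a few transcripts, among them WT1, HNRNPK and TPH2. None of these 3 genes held a called G-to-A site, and only 1 of them held a called site of any change.

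The sites fall into types that can be seen in the sequence. The following 25 bases of spliced GENCODE 29 transcript (GRCh38) are centred on the site, 5′ to 3′ on its strand. The G of the site is in capitals and, where 6 or more A follow it, that run is in capitals too. The first 6 are the sites called in all 14 libraries and the 1 site that every hA3A-BE3 library and no further library called.
COL2A1: aatccagcaaacGttcccaagaaga
TPBG: ccccagattaacGaacctcagttct
PCNX2: taactaatcacaGaaatccaagcaa
ZNF510: tctgatcattttGggcttcaagtct
MT-RNR2: tcaggacatcccGatggtgcagccg
ANXA9: tccttatctctcGatgtgagactga
The next 6 are sites before a run of A that several libraries called, chosen after their values were seen.
SCD: gagggatgtttgGAAAAAActctga
SBNO1: tgctccagacagGAAAAAActttat
CAPN2: atattaaatcagGAAAAAAAAAtgc
ZNF101: tcaggaatgtggGAAAAAActcagt
PTBP2: ttatgctgaaagGAAAAAAtcaggc
LARP1: tgaaaaaatgggGAAAAAAgaagaa

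Most G-to-A sites lay in exons of protein-coding genes. Of the 587 sites, 284 (48.4%) were coding, 171 (29.1%) lay in a 3' UTR, 82 in an intron, 20 in a non-coding exon, 15 in a 5' UTR and 15 outside genes on their strand. They fell in 500 genes, 8.92% of the 5608 genes with any called site. Among the coding sites 157 changed an amino acid, 120 were synonymous and 7 made a stop codon. The 7 stop codons all replaced tryptophan, in PPP2R5A, KLHDC2, MTMR4, PNMA8A, TNRC6B, CCDC66 and NUPL2. They were spread over the 5 groups, and only W292X of CCDC66 was called in more than 1 library, in 1 NT and 1 hA3A-BE3 library, at a mean of 7.07%. These 7 genes were chosen after their values were seen.

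Cells given hA3A-BE3 held more G-to-A sites than the controls, by a small margin that did not pass adjustment over the 12 changes. The hA3A-BE3 libraries held 86, 73 and 94 sites. NT libraries held 61, 71 and 50, EGFP libraries 63, 71 and 72, and Cas9 libraries 68, 77 and 66. The lowest hA3A-BE3 library, replicate 2, thus lay above 8 of the controls and below Cas9 replicate 2. The means were 84.3 ± 10.6 (SD, n = 3) and 66.6 ± 7.89 (SD, n = 9), a 1.26-fold difference on the log2(sites + 1) scale with a 95% interval of 1.06 to 1.55 (two-sided exact permutation p = 0.0182, Benjamini-Hochberg adjusted p = 0.109 over 12 changes). G-to-A was 1 of 3 changes called higher at an exact p of 0.05 or less, 25% of the 12, and 0% were called lower. The others were C-to-T, at 92.8-fold, and C-to-G, at 1.499-fold. Folds near or above that of G-to-A were not particular to it. Among changes not called, G-to-T stood at 1.48-fold, T-to-G at 1.39, T-to-A at 1.22, A-to-C at 1.21 and A-to-T at 1.15. T-to-C, A-to-G and C-to-A stood at 1.09-, 1.04- and 1.03-fold, and G-to-C at 0.972-fold. Without hA3A-BE3 replicate 1 or without replicate 3 the exact permutation p was 0.0727 each time, and per Gb of mapped bases it was 0.118.

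The excess was made up of sites with few mutated reads. Among calls with fewer than 5 mutated reads, hA3A-BE3 libraries held 63, 51 and 60 sites and controls 30 to 51, with means of 58.0 ± 6.24 (SD, n = 3) and 40.3 ± 6.93 (SD, n = 9). Among calls with 5 or more, hA3A-BE3 libraries held 23, 22 and 34 sites and controls 20 to 34, with means of 26.3 ± 6.66 (SD, n = 3) and 26.2 ± 3.83 (SD, n = 9). With that minimum the log2 difference was -0.0083 (two-sided exact permutation p = 0.982). Minimums of 20 and 50 covering reads left log2 differences of 0.36 and 0.37 (exact permutation p = 0.0636 and 0.173), beside 0.34 with no such minimum, and an edited fraction of at least 10% one of 0.20 (exact permutation p = 0.209).

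**Figure D1:**
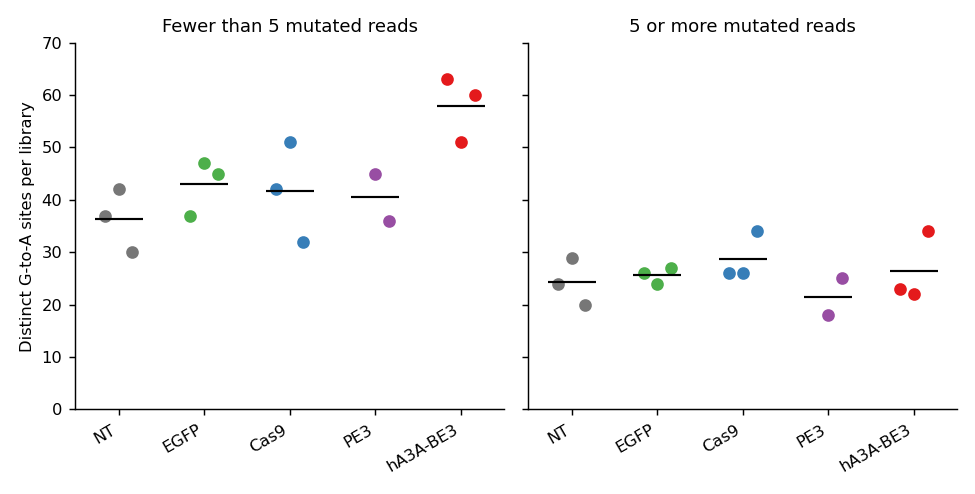
Distinct G-to-A sites per library (vertical axis) by group, 1 point per library with the group mean as a line, for calls with fewer than 5 mutated reads (left) and with 5 or more (right). The hA3A-BE3 libraries sit at 51 to 63 on the left and at 22 to 34 on the right, where controls hold 20 to 34.

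PE3 libraries held 63 and 61 G-to-A sites, within the range of the controls. The mean was 62.0 ± 1.41 (SD, n = 2), 0.939-fold of the controls with a 95% interval of 0.795 to 1.25 (two-sided exact permutation p = 0.509, adjusted p = 0.764 over 12 changes). At an exact p of 0.05 or less, 8.33% of the 12 changes were called higher in PE3 (A-to-T) and 0% lower. PE3 replicate 2 had the fewest mapped bases of all libraries, 3.26 Gb as read from its depth columns, against 5.44 to 10.6 Gb in the controls and 5.88 to 8.87 Gb in hA3A-BE3, and per Gb the PE3 value was above that of the controls by 0.44 on the log2 scale (exact permutation p = 0.291). In 7 comparisons of single groups no exact permutation p was under 0.1, the smallest that 3 against 3 libraries can give. hA3A-BE3 stood at 1.39-fold of NT (p = 0.1) and 1.22-fold of EGFP (p = 0.1) with no overlap, and at 1.19-fold of Cas9 (p = 0.2) with overlap (exact permutation tests, adjusted p = 0.28 each over 7 pairs). Against PE3 it stood at 1.35-fold (p = 0.2, the smallest that 3 against 2 can give in an exact permutation test, adjusted p = 0.28).

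Sites seen in no other group, which are part of the numbers above and not a separate set, were also more numerous in hA3A-BE3 cells than in controls. Each hA3A-BE3 library held 55, 42 or 52 such sites, and controls held 20 to 41, so hA3A-BE3 and controls did not overlap. PE3 replicates 2 and 3 held 47 and 24, the first of them above hA3A-BE3 replicate 2. The means were 49.7 ± 6.81 (SD, n = 3) and 30.2 ± 7.53 (SD, n = 9), a 1.66-fold difference with a 95% interval of 1.23 to 2.48 (two-sided exact permutation test, p = 0.00909, which is the lowest possible for 3 against 9 libraries, adjusted p = 0.0409 over 9 measures). These numbers were counted with the group labels and not anew in each assignment, so p-values for this measure are approximate. The adjusted p also rests on a tie at this exact p with the G-to-A share of all calls, given below. Over the 587 sites, 140 were called in hA3A-BE3 only, 110 in Cas9 only, 87 in EGFP only, 72 in NT only and 70 in PE3 only, which has 2 libraries. These are 23.9%, 18.7%, 14.8%, 12.3% and 11.9% of the sites, and over the 11 changes other than C-to-T the shares were 13.8%, 13.2%, 14.3%, 12.3% and 7.54% in the same order. The log2 difference per library, 0.73, was 0.69 where calls had 5 mutated reads or more (exact permutation p = 0.245) and 0.91 at 50 covering reads (exact permutation p = 0.0818), neither past the threshold. Without hA3A-BE3 replicate 1 or replicate 3 it was 0.62 or 0.65 (exact permutation p = 0.0727 each). The G-to-A share of all calls was lower in hA3A-BE3, 1.28% ± 0.481 (SD, n = 3) against 2.96% ± 0.997 (SD, n = 9) (exact permutation p = 0.00909, adjusted p = 0.0409), in lists where C-to-T sites averaged 4686 against 46.0. C-to-T calls are part of the total behind this share, so it falls as they rise.

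**Figure D2:**
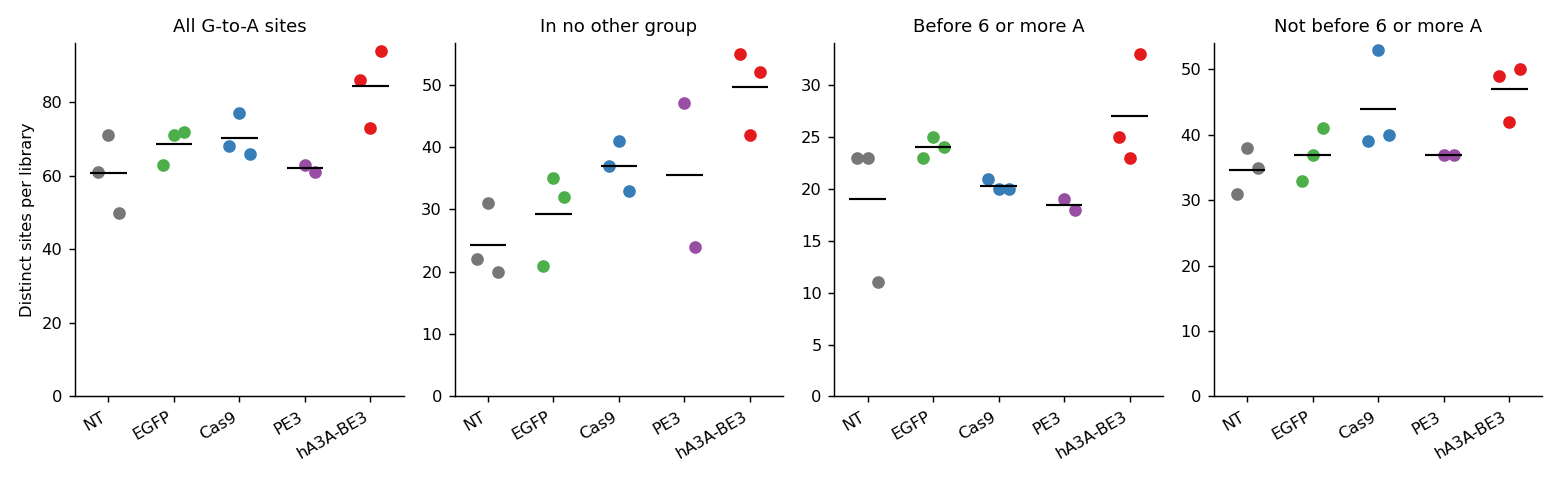
Distinct G-to-A sites per library (vertical axes, each from 0) by group, 1 point per library with the group mean as a line, for all sites, for sites called in no other group, and for sites before or not before 6 or more A. The hA3A-BE3 libraries lie above all controls in the second panel (42 to 55 against 20 to 41) and overlap them in the other 3. In the second panel the PE3 libraries lie at 47 and 24.

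Levels overlapped between hA3A-BE3 and the controls. Level here means the percentage of covering reads with A. The median level of a library was 9.54% ± 0.911 (SD, n = 3) in hA3A-BE3 and 9.98% ± 1.15 (SD, n = 9) in controls, a difference of -0.44 percentage points with a 95% interval of -2.09 to 1.24 (exact permutation p = 0.573). It was -4.90 (exact permutation p = 0.0364) with sites of 10% and more alone and 0.26 at 50 covering reads. Of all 976 calls, 480 were under 10% and 355 rested on exactly 3 mutated reads. Only 3 calls reached 90%. By region, coding sites made up 48.1% ± 3.74 of the hA3A-BE3 sites and 42.0% ± 3.33 of the control sites, and 3' UTR sites 29.4% ± 3.66 and 36.9% ± 2.82 (SD, n = 3 and 9). Their exact permutation p were 0.0364 and 0.0182, 2 of 6 regions or 33.3%, and both adjusted p were 0.109 over the 6 regions. PE3 means, not part of these tests, lay further from the controls in the same direction. Coding sites made up 61.1% ± 14.6 of the PE3 sites and 3' UTR sites 21.1% ± 11.9 (SD, n = 2). That distance rested on PE3 replicate 2, the library with the fewest mapped bases, at 71.4% and 12.7%. PE3 replicate 3, at 50.8% and 29.5%, lay close to the hA3A-BE3 means.

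The bases around the sites held the sharpest pattern of the class. Transcript sequence was at hand for 508 of the 587 sites, and in 163 of these (32.1%) the G was followed directly by 6 or more A. Only 1 site was followed by exactly 5. G positions were counted over 5360 transcripts, 1 per gene with a called exonic site of any change. Called G-to-A sites amounted to 0.00545% of the G positions with no A after them and to 0.00696% of those with 5 A. They amounted to 2.00% of those with 6 A (79 sites, 3945 positions) and to 2.62% of those with 8. Sites were counted on whichever transcript gave their sequence, so some may lie outside the counted positions. Before 6 or more A, called sites amounted to 2.33% of 6993 G positions. The minimum of 6 was chosen after this pattern was seen, so no test is given for it.

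**Figure D3:**
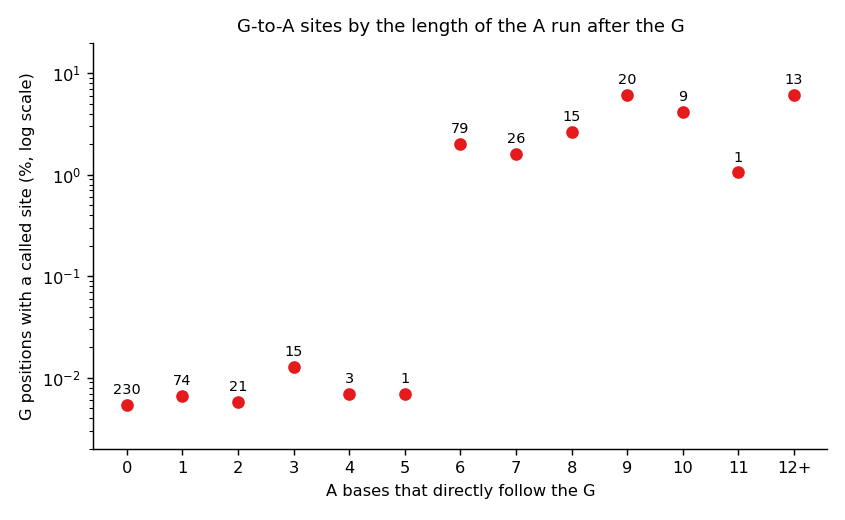
Called G-to-A sites as a percentage of transcript G positions (vertical axis, log scale) by the number of A bases that directly follow the G (horizontal axis, the last value standing for 12 or more), with the number of sites above each point. The G positions are those of 5360 transcripts, 1 per gene with a called exonic site of any change. The percentage lies between 0.00545% and 0.0127% up to 5 A and between 1.05% and 6.17% at 6 A and more.

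The base before the G was also uneven at these sites. It was G in 146 of the 163 sites (89.6%), as in the SBNO1, CAPN2 and LARP1 sequences above, against 29.3% of all such G positions in the 5360 transcripts. It was C at none of the 163. At the 345 other sites the base before was A in 32.2%, G in 28.1%, T in 22.0% and C in 17.7%, and the base after was A in 33.3%, against 28.2% of transcript G outside such runs. Of the other changes, C-to-A came next, with 11 of 74 sites (14.9%) before 6 or more A, then A-to-C with 3.17%, and the remaining ones lay at or under 1.47%.

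All 5 groups shared the pattern. The sites before 6 or more A numbered 23, 23 and 11 in NT, 23, 25 and 24 in EGFP, 21, 20 and 20 in Cas9, 19 and 18 in PE3, and 25, 23 and 33 in hA3A-BE3. Their share of a library's sites with sequence was 36.3% ± 3.09 (SD, n = 3) in hA3A-BE3 and 35.4% ± 6.29 (SD, n = 9) in controls, a difference of 0.95 percentage points with a 95% interval of -6.86 to 11.1 (exact permutation p = 0.891). In numbers, hA3A-BE3 stood at 1.28-fold of the controls before such runs (exact permutation p = 0.1) and at 1.22-fold elsewhere (exact permutation p = 0.0818). The share of sites followed by at least 1 A was 60.9% ± 4.61 against 55.04% ± 4.06 (SD, n = 3 and 9; exact permutation p = 0.0727). That difference, 5.90 percentage points, was 13.5 (exact permutation p = 0.00909) with sites of 10% and more alone. With 5 mutated reads it was 1.86 (exact permutation p = 0.664), and at 50 covering reads it reversed to -6.25 (exact permutation p = 0.236). Sites before 6 or more A are followed by A by definition. Among the other sites with sequence the share was 38.8% ± 4.52 in hA3A-BE3, 30.15% ± 6.53 in controls and 36.5% ± 5.73 in PE3 (SD, n = 3, 9 and 2), which was not tested.

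Sites before a run of A were low in level and more of them lay in 3' UTRs. Of the 163, 82 (50.3%) lay in a 3' UTR, against 89 of 345 other sites (25.8%). The share of all G positions before such runs that lie in 3' UTRs was not counted. The median over sites of the mean level was 7.58% before such runs and 8.82% elsewhere. Both are near the lowest called level, 5.02%, and the median of the mean covering reads was 46.3 and 36. SCD, the stearoyl-CoA desaturase that makes monounsaturated fatty acids, was called in 11 libraries at 5.78% to 13.8%, a mean of 7.88% ± 2.38 (SD, n = 11). CAPN2, the large subunit of a calcium-dependent protease, was called in 9 at 5.21% to 9.80%. Both sites lie in the 3' UTR. In the coding sequence, R673R of SBNO1 was called in 10 libraries at 6.25% to 12.7%, G288G of the zinc finger gene ZNF101 in 8 at 9.09% to 27.6%, and G93E of PTBP2, a neuronal splicing regulator, in 5 at 5.05% to 9.72%. Each of these was called in hA3A-BE3 as well as in control libraries.

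Recurrence separated a small set of sites from the rest. Of the 587 sites, 467 (79.6%) were called in 1 library, 32 in 5 or more and 5 in all 14 (0.852%, where 1.29% of the 11749 sites of the changes other than C-to-T were called in all). Among the sites called in 5 or more libraries, the 12 before 6 or more A had a median level of 8.36% and the 17 others with sequence 35.0%.

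**Figure D4:**
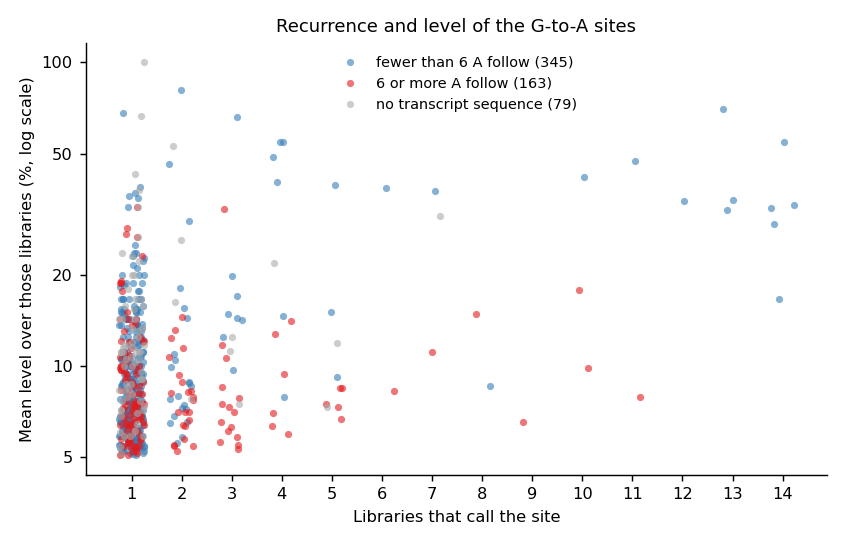
Mean level over the libraries that call a site (vertical axis, percent, log scale) against the number of those libraries (horizontal axis, points spread sideways for legibility), 1 point per G-to-A site, coloured by whether 6 or more A follow, fewer follow or no transcript sequence was at hand. No site before 6 or more A was called in more than 11 libraries, and the 5 sites called in all 14 have mean levels from 16.6% to 54.6%.

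At the 5 sites called everywhere the groups overlapped in level. V1331I of COL2A1, the alpha chain of type II collagen (chromosome 12, position 47974758, minus strand), stood at 56.7%, 46.7% and 50.5% in NT, 52.2%, 57.6% and 51.7% in EGFP, 76.2%, 52.2% and 53.8% in Cas9, 52.6% and 46.4% in PE3 and 69.7%, 54.6% and 43.3% in hA3A-BE3. The 2 highest values were single libraries of Cas9 and hA3A-BE3, and the mean was 54.6% ± 8.79 (SD, n = 14) over 19 to 120 reads. The site in the 3' UTR of ZNF510, a zinc finger gene (chromosome 9, position 96756842, minus strand), ran from 22.2% to 50% around a mean of 34.0% ± 8.77. T412T of TPBG, a leucine-rich cell surface glycoprotein (chromosome 6, position 82366197, plus strand), ran from 18.9% to 46.2% around 33.1% ± 6.55. R117K of PCNX2, a membrane protein gene (chromosome 1, position 233262967, minus strand), ran from 6% to 25% around 16.6% ± 5.57 (SD, n = 14 each).

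The deepest of the 5 was in MT-RNR2, the large ribosomal RNA of the mitochondrion (position 3010 of the mitochondrial genome). It was covered by 369 to 3604 reads and stood at 22.9% to 35.5%, a mean of 29.3% ± 3.87 (SD, n = 14). Its counting intervals are narrow enough to part libraries of 1 group: Cas9 replicate 3 had 35.5% (95% Wilson interval 34.0% to 37.1%) and Cas9 replicate 1 29.5% (27.0% to 32.2%). Intervals here cover counting error only, since the reads have no molecular identifiers in these files. The small ribosomal RNA, MT-RNR1, held a site at position 709 that was called in 8 libraries at 5.57% to 12.8%, including all 3 of hA3A-BE3 and none of PE3. Over the 5 sites together the mean level was 34.1% ± 5.24 (SD, n = 3) in hA3A-BE3 and 33.1% ± 1.79 (SD, n = 9) in controls, a difference of 0.97 percentage points with a 95% interval of -4.86 to 5.52 (exact permutation p = 0.645).

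**Figure D5:**
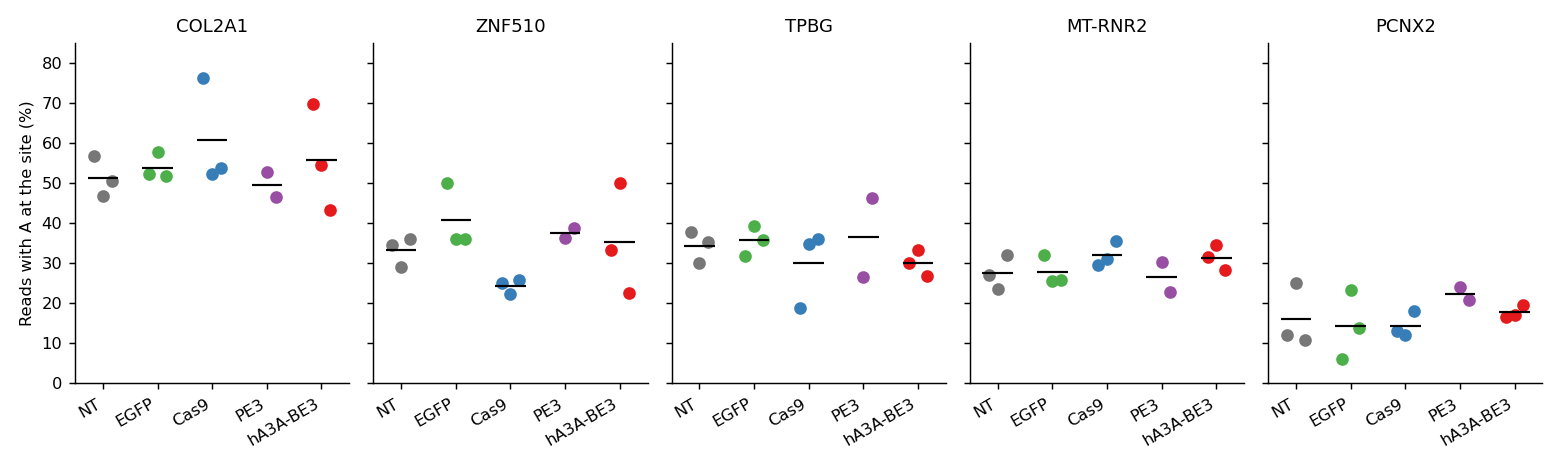
Percentage of reads with A (vertical axis, shared by the panels) at the 5 G-to-A sites called in all 14 libraries, by group, 1 point per library with the group mean as a line. COL2A1 is centred near 54.6% and PCNX2 near 16.6%, with the hA3A-BE3 points among those of the other groups.

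A further 3 sites were missed by 1 library each. T211T of TFB1M, a mitochondrial ribosomal RNA methyltransferase, had the highest mean level of the sites called in 5 or more libraries, 58.5% to 88.9% with a mean of 70.4% ± 8.71 (SD, n = 13). L419L of POMGNT1, a glycosyltransferase of dystroglycan, had a mean of 35.2% ± 9.49, and the 3' UTR site of UHMK1, a protein kinase gene, one of 32.7% ± 7.26 (SD, n = 13 each). These 3 were chosen after their values were seen.

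Very few G-to-A sites marked a single group. Only R300Q of ANXA9, a member of the annexin family (chromosome 1, position 150994623, plus strand), was found in each of the 3 hA3A-BE3 libraries and nowhere else, 0.17% of the 587 sites, beside 0.0511% of the sites of the 11 changes other than C-to-T and 4.75% of all 12. It rested on 3 of 18, 3 of 18 and 6 of 34 reads, a level of 16.99% ± 0.566 (SD, n = 3), and with a minimum of 20 covering reads or of 5 mutated reads no site met the rule. The numbers of sites called in at least 2 libraries of 1 group and in no other group were 8 for hA3A-BE3 (1.36% of the 587) and 1 for each of the other groups (0.17%). Over the 11 changes other than C-to-T the same rule took 0.928% of the sites for hA3A-BE3, 1.11% for NT, 0.945% for EGFP, 0.63% for Cas9 and 0.0596% for PE3. Those of hA3A-BE3 included sites in UBE4B, ZNF260, SPATS2L, CCDC50, ZNF92 and GPRASP2, chosen after their values were seen, and 3 of these, in UBE4B, SPATS2L and CCDC50, lay before 6 or more A.

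In PE3 cells the site called in both libraries and in no other group was in RNF2, the gene named in the titles and a RING-type ubiquitin ligase of Polycomb repressive complexes. This synonymous change, Q29Q (chromosome 1, position 185087640, plus strand), was carried by 9 of 9 reads in replicate 2 (95% Wilson interval 70.1% to 100%) and by 8 of 13 reads, 61.5%, in replicate 3 (35.5% to 82.3%). It is 0.17% of the G-to-A sites, beside 0.0596% of the sites of the 11 changes other than C-to-T. No such site, 0% of the 587, was found for NT, EGFP or Cas9, beside 0.162%, 0.0681% and 0% of the sites of the same 11 changes.

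Genes on the opposite strand touched 3 of the 587 sites (0.511%), against 0.822% of the sites of other changes and 5.51% of T-to-C sites. All 3 were called once each, in hA3A-BE3 libraries. In CRLF3 (chromosome 17, position 30784788, minus strand) an intron of the site's strand faces an exon of the pseudogene SUZ12P1, with 2 of 19 reads mutated. In JPX (chromosome X, position 73947234, plus strand) the exons of 2 non-coding RNAs, JPX and FTX, overlap, with 3 of 45 reads mutated. The last (chromosome 17, position 68126238, plus strand) lies in no gene of its strand and in an intron of LRRC37A16P on the other, at 5.41%. The share was 1.23% ± 1.17 (SD, n = 3) in hA3A-BE3 and 0% in controls (exact permutation p = 0.0909). At none of the 587 positions was C-to-T called on the opposite strand in any library, nor any other change. None of the 140 sites private to hA3A-BE3 had a C-to-T site on the opposite strand within 50 bases, nor had any of the 380 sites with no hA3A-BE3 call. Such calls need reads from the opposite strand, where only 3 of the 587 sites had an annotated gene, so these zeros decide little. On the same strand 13 of these 140 (9.29%) had a C-to-T site within 50 bases, beside 33 of those 380 (8.68%).

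Several sites lay close together, 53 of the 587 within 50 bases of another G-to-A site. In an intron of LINGO1, a gene for a membrane protein of neurons, 6 sites stood within a short stretch, at 6.12% to 17.9%. Each was called in 1 library, 3 in Cas9 replicate 1 and 3 in hA3A-BE3 replicates 1 and 2, the latter on 2 mutated reads each. In the 3' UTR of SCLY, the selenocysteine lyase, 4 sites lay in a repeated stretch of sequence, and the first of them was called in 6 libraries at 21.4% to 52.2%. ZNF614 held 4 coding sites in 1 EGFP library, all at 6.82% to 7.14%. ZNF431 also held 4, and 9 genes held 3 each, among them PATJ, KHDC4, AC117378.1 and ZNF92. Members of the zinc finger family share near-identical stretches, so the gene their reads came from is uncertain. Genes named ZNF held 54 of the 284 coding sites (19.01%), beside 21.9% of the coding sites of the 9 changes other than G-to-A, C-to-T and A-to-G, and only 1 of the 54 lay before 6 or more A.

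In gene lists, the number with G-to-A is set beside the genes with any called site, of which 8.92% had G-to-A over all genes. Of the 14 cytidine and adenosine deaminase genes, 3 had any called site and only ADARB2 had G-to-A. Its 2 intron sites were called in hA3A-BE3 replicate 3 alone, with 2 of 28 and 2 of 24 reads mutated (7.14% and 8.33%). Of 39 ribosomal protein genes with any called site 2 had G-to-A, RPL27A and RPS3, each in 1 library. Of 15 chaperone genes with any called site 3 had G-to-A, HSPA9, CCT6A and DNAJA1, the last before 9 A in its 3' UTR in 3 libraries at 5.15% to 5.68%. Of 10 glycolysis genes with any called site only PKM had one, and of 12 translation factor genes only EIF3A, whose E99K lay before 6 A and was called once, in PE3. Of 20 KRAB-type zinc finger genes with any called site, 4 held 11 G-to-A sites. Among the structural and long non-coding RNAs, GAS5 had 1 site and MALAT1 a pair 8 bases apart in Cas9 replicate 2, each with 73 mutated reads, at 7.75% and 7.88%. None of the 2 actin and tubulin genes or 8 histone genes with any called site had G-to-A.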

How the data were processed

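Site lists came from total RNA-seq of 293FT cells after ribosomal and globin depletion, with stranded libraries read as pairs of 150 bases, per the labels' protocols. The submitters' processing notes list BWA 0.7.17 as a tool and GRCh38 (hg38) as the build. No source used here gives the caller, its filters or how strands were assigned. The deposited lists hold counts of reads covering a site, of each base and of mutated reads, the deposited fraction of each base and the edited fraction, and a deposited signal column equal to a read depth divided by a constant per library, read here as mapped Gb. In the values every call had at least 2 mutated reads, a level from 5.02% up and 3.01 reads per Gb or more, so a site missing from a list need not be at level 0. Cell-type markers cannot be checked in lists of sites. PE3 replicate 1 was not analysed here.

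The strand of every call followed from the edited fraction. At 18227 of 18227 sites in exons of that strand the reference base matched the GENCODE 29 transcript, which also checked the build. Region was taken from coding sequence first, then UTRs (3' before 5'), non-coding exons and introns. Context came from spliced transcripts, so 79 sites, mostly in introns, had none. Mean values per library were compared by exact permutation, two-sided (220 assignments for 3 against 9), with numbers taken as log2(sites + 1) and Benjamini-Hochberg adjustment. A change counts as called at an exact p of 0.05 or less, and 95% intervals hold the shifts not rejected. Scripts were tested on simulated data (Python 3.11.15, scipy 1.17.1). The members, lists and tests were chosen with earlier results of these data known. The minimum of 6 A and 3 measures built on it were added after the data were seen. Named sites were those called in all libraries, or in all of 1 group and no other, those with the most sites per gene, up to 3 genes per list, and sites with a gene on the opposite strand only. Others are said to be chosen after their values were seen, as were the CRLF3 and JPX sites. Some sites that recur are not reported here.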

Additional observations from a re-analysis of the deposited data

Results flagged for a closer look

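Single libraries stood apart from the other controls in 5 of 14 measures tested for a lone high or low value among the 9 controls. Chance flags about 1 in 20 such measures. NT replicate 3 held 11 sites before 6 or more A, where the next lowest control held 20. Cas9 replicate 2 held 53 sites outside such runs, where the next highest control held 41. The level of COL2A1 was 76.2% in Cas9 replicate 1, above 57.6% in the next control, and that of TPBG was 18.9% in the same library, below 30%. ZNF510 reached 50% in EGFP replicate 1, above 36%.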

How the results depend on the processing

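Values are log2 differences for numbers of sites and percentage points for shares and levels, each hA3A-BE3 minus the 9 controls unless named otherwise, with p from exact permutation. The cause of the changes below was not tested. By exact permutation, the difference in numbers of G-to-A sites missed the threshold with 20 covering reads (0.36, p = 0.0636), 50 covering reads (0.37, p = 0.173) and an edited fraction of 10% (0.20, p = 0.209), turned to -0.0083 (p = 0.982) with 5 mutated reads, and missed it per Gb (0.33, p = 0.118) and relative to A-to-G sites (0.28, p = 0.364). It ran from 0.26 to 0.44 with each library left out. Sites in no other group missed it with 50 covering reads (0.91) and 5 mutated reads (0.69) and ran from 0.62 to 0.83 with each library left out. The share followed by A was -6.25 with 50 covering reads and 13.5, now past the threshold, with a fraction of 10%, and 3.24 to 7.32 with each library left out, past it without EGFP replicate 2 (6.89). The median level was 0.26 with 50 covering reads and 0.34 without sites of NT cells, and -4.90, past the threshold, with a fraction of 10%. The level at sites in all libraries ran from -0.93 to 3.96, the share with an opposite-strand gene from 0.68 to 1.85 (past it without hA3A-BE3 replicate 3) and sites outside A runs from 0.24 to 0.37 (past it without Cas9 replicate 2). By exact permutation without sites of NT cells, where NT was left out as it then holds 0 sites, sites before 6 or more A passed it (0.39, p = 0.0476). Regions past the threshold, 2 in the main analysis, numbered 1 with a fraction of 10%, 5 mutated reads or without sites before 6 or more A (an alternative chosen after seeing the data), 0 with 50 covering reads or without sites of NT cells, and 0 to 2 with each library left out. Recurrent hA3A-BE3 sites, 1 in the main analysis, numbered 0 with 20 or 50 covering reads or 5 mutated reads, and 1 to 5 with each library left out, where the rule asks for 1 library less.

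PE3 against controls turned to 0.0048 with a fraction of 10%, 0.44 per Gb and 0.50 relative to A-to-G sites. Between single groups, where none passed the threshold under any alternative run, Cas9 against EGFP turned to -0.10 with a fraction of 10%, -0.039 per Gb and -0.033 without Cas9 replicate 2, with a range of -0.033 to 0.077 over left-out libraries. PE3 against Cas9 turned to 0.021, 0.42 and 0.19 with a fraction of 10%, per Gb and relative to A-to-G sites. hA3A-BE3 against Cas9 turned to -0.13 with 5 mutated reads and -0.029 relative to A-to-G sites, and against PE3 to -0.10 per Gb and -0.21 relative to A-to-G sites. ANXA9 stood at 17.6% in the 1 library left with 20 covering reads or 5 mutated reads.

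No pairing of libraries by replicate number was seen in levels taken as differences from the group mean. The median correlation of these differences between libraries was 0.024 for the same number, with a range of -0.176 to 0.152. For different numbers it was -0.012, with a range of -0.163 to 0.165. With the replicate number as a block the difference in numbers was 0.34 with exact permutation p = 0.0625, regions past the threshold numbered 1, and no other call changed. Of the 976 calls, 355 rested on exactly 3 mutated reads.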
